A study of Mus musculus with 20 samples.

Results

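The 10 genes described here are Trp63, Sfn (stratifin), Perp and 7 genes of the desmosome, Dsg2, Dsg3, Dsc2, Dsc3, Pkp1, Pkp3 and Dsp. They were chosen by name, as the rows of the deposited table to which the platform annotation gives exactly 1 of these symbols. Each of the 10 had 1 such row, among 30142 genes with a row of their own. Whole-transcript arrays were hybridised with RNA from mouse bladders and metastases of the FVB/N strain, extracted with a kit for fixed, embedded tissue. The values are levels taken to be on the log2 scale, and no fold changes are given since many levels lie near those of dim rows (the 40th percentile of all rows is 5.10) and no detection calls were used here.

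Metastases were on 4 arrays, and 1 further array, titled as a palbociclib metastasis, is given as a single value. Treated bladders (3 arrays) came from mice inoculated with a Cre adenovirus in the bladder and then given CDDP (cisplatin) together with palbociclib, which blocks the cell cycle kinases Cdk4 and Cdk6. Palbociclib was injected daily at 150 mg/kg over 28 days, and CDDP weekly at 6 mg/kg. Tumour bladders (7 arrays) had the adenovirus and no drug, and normal bladders (5 arrays) came from CKO mice for which no inoculation is named. All groups share the CKO background, with floxed alleles (Rbf/f among them) and loss of p107 (p107-/-), so the normal bladders carry the p107 loss too. The labels do not say which bladder cells took up Cre, where a metastasis was taken, which drugs the palbociclib metastasis had received, or the age and sex of a mouse. Nothing in the labels says that the arrays of a group came from separate animals, so p-values measure the spread between these samples.

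Desmosomes are spot-like junctions that rivet neighbouring epithelial cells together. Desmogleins and desmocollins, the desmosomal cadherins, bind across the gap between cells, plakophilins gather them under the membrane, and desmoplakin ties the plaque to keratin filaments. Trp63, a transcription factor related to p53, maintains the basal layer of stratified epithelia, the urothelium included, and Perp is one of its target genes there. Stratifin, or 14-3-3 sigma, is a 14-3-3 protein made mainly by epithelial cells.

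Promoter sequences were at hand for 2 of the 10 genes, Sfn and Dsp. These 2 also had the largest differences of the 10 between metastases and tumour bladders. Their promoters are shown as 250 bases before the gene start, on the gene's strand (RefSeq, GRCm38.p6). Sfn lies at chr4:133602169-133602418 on the minus strand and Dsp at chr13:38151044-38151293 on the plus strand. Capitals mark every match on either strand to 6 searched motifs.
Sfn: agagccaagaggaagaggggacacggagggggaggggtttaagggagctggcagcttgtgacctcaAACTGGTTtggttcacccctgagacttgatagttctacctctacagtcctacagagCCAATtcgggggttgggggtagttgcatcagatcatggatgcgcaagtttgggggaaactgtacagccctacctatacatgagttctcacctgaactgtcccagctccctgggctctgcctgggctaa
Dsp: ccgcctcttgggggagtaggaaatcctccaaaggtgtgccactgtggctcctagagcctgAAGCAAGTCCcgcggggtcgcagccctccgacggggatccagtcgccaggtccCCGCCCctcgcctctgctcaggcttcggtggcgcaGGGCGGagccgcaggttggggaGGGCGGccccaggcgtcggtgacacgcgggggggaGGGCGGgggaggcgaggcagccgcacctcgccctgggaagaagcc
The windows differ in base composition, with 54.4% G or C before Sfn and 72.4% before Dsp, where the mean over 32851 promoter windows was 53.2%.

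The Sfn window held 1 match to the grainyhead motif AACCNGTT, starting 184 bases before the gene start, and 1 CCAAT box (CCAAT) at 128 bases. The grainyhead letters occurred in 1.79% of all windows and CCAAT in 33.8%. The Dsp window held 4 GC boxes (GGGCGG) at 137, 102, 80 and 45 bases and 1 match to the p53-family half-site at 190 bases. GC boxes occurred in 32.7% of all windows and the half-site in 7.13%. Neither window held the AP-1 motif TGANTCA (6.75% of all windows) or the TATA box TATAAA (12.4%), no matches overlapped, and a match or its absence says nothing of binding.

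Of the 20 arrays, 8 stood apart from the rest without regard to group: metastases 3 and 4, tumour bladders 3, 4 and 5, and normal bladders 4, 5 and 6. On these the marker means of urothelium hardly varied. The luminal urothelial mean (Upk1a, Upk1b, Upk2, Upk3a and Krt20) ran from 7.24 to 7.65 on the 8 arrays and from 4.75 to 11.39 on the other 12. The 8 were defined by a rule on the data, so many of the results are also given over the 12 arrays and over the 8. They held no treated bladder. What sets them apart was not tested, so a value over the 8 arrays may not measure the same thing as one over the 12. Among the 10 genes, Dsp had an SD of 0.102 over the 8 arrays and 0.816 over the 12, and Trp63 0.157 and 0.597. Sfn varied on both, with an SD of 0.324 over the 8 arrays and 0.381 over the 12.

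**Figure D1:**
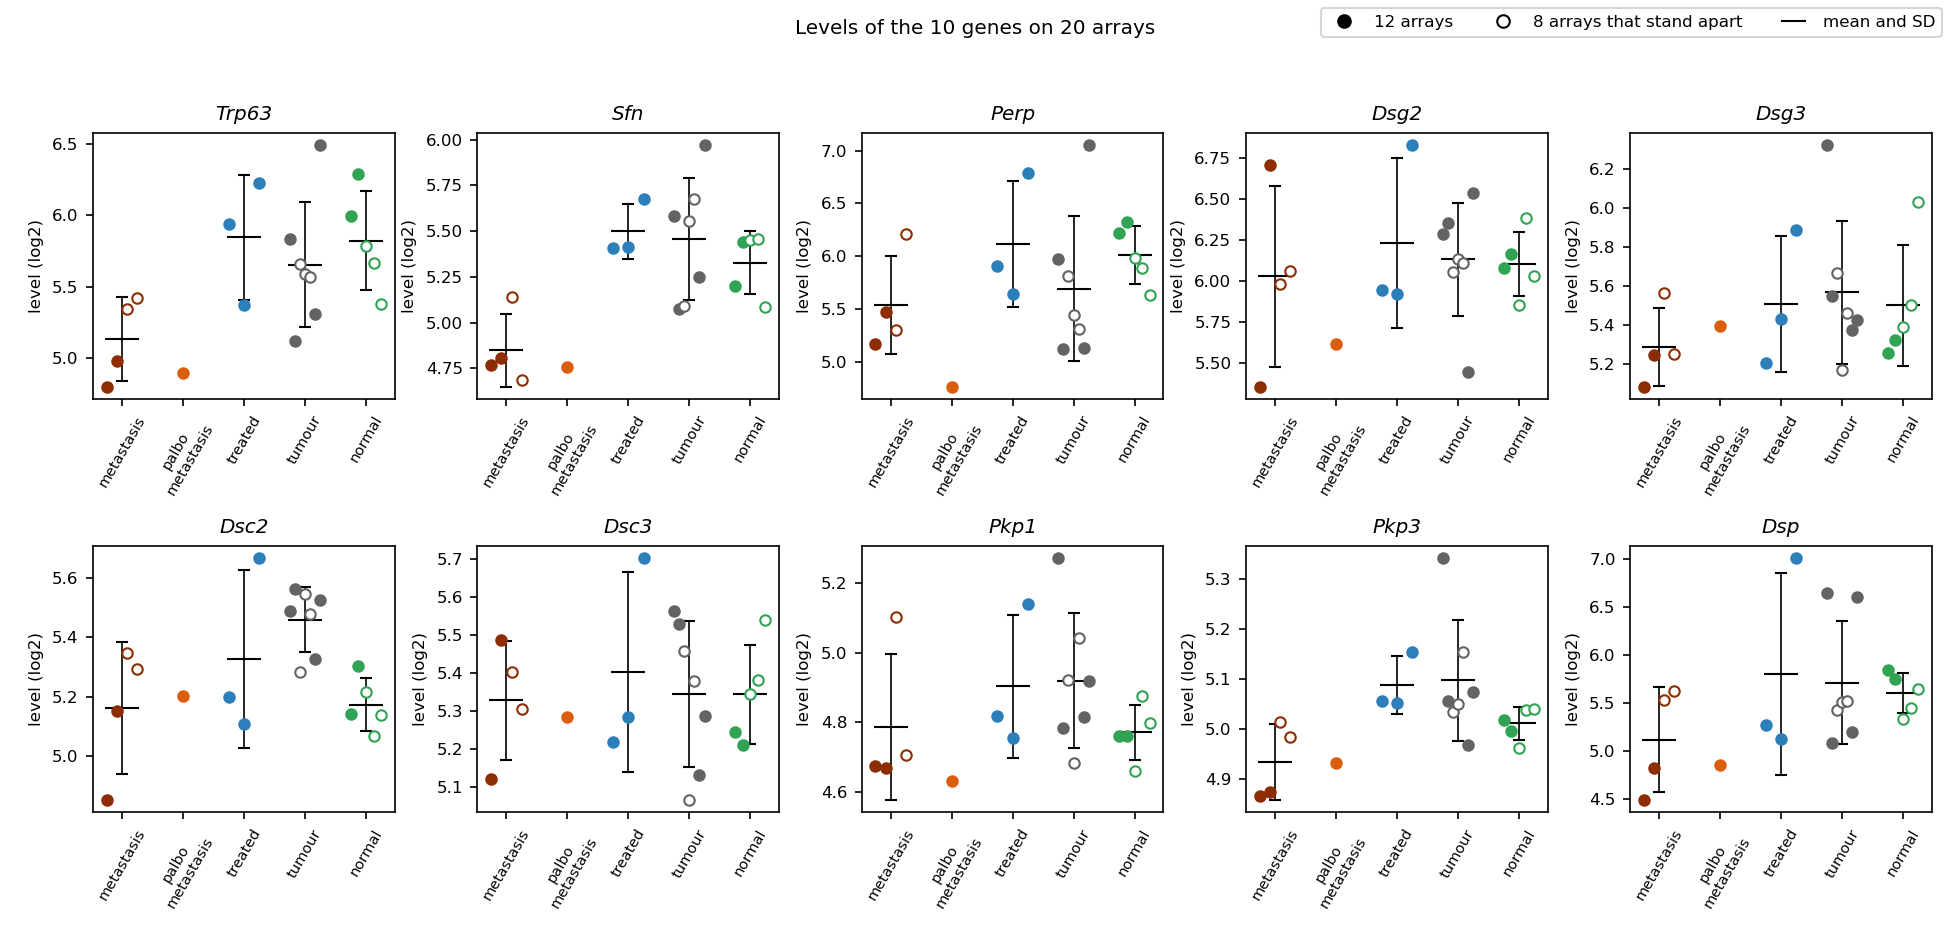
Levels of the 10 genes on the log2 scale, 1 panel a gene, for metastasis, palbociclib metastasis, treated, tumour and normal bladder arrays. Each point is an array (open for the 8 arrays that stand apart), bars are means and SD. Sfn is at 4.69 to 5.14 on the 4 metastases and at 5.07 or above on every tumour and normal bladder.

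The first comparison asks how secondary growths differ from the primary site, with metastases set against tumour bladders. All 10 genes had lower means in metastases, with differences from -0.61 to -0.02 and a median of -0.22, where the median over all 30142 genes was -0.03 and 56.1% of genes were lower. Over the 12 arrays all 10 were lower, and over the 8 arrays 6 of 10 were. By limma 0 of 10 passed at an adjusted p under 0.05, against 0% of all genes (0 of 30142). At an unadjusted p under 0.05 there were 3 of the 10, all lower (Sfn, Dsc2 and Trp63), against 5.79% of all genes, of which those lower were 3.37%. No gene of the 10 had groups that did not overlap, as 0.504% of all genes did. By the exact permutation test 4 had an unadjusted p under 0.05, the same 3 and Pkp3. With each array centred on its median, 9 of the 10 genes were lower (Dsc3 was higher) and 1 had an unadjusted limma p under 0.05. Centring also turned the balance of all genes at that level, from 728 of 1745 higher in metastases as deposited to 995 of 1607. In whole tissue, fewer cells of a type and less RNA per cell cannot be told apart.

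Sfn was at 4.77, 4.80, 5.14 and 4.69 in metastases 1 to 4. In tumour bladders 1 to 7 it was at 5.58, 5.07, 5.09, 5.55, 5.68, 5.25 and 5.97. Metastases 1, 2 and 4 lay below every tumour bladder, while metastasis 3 lay above tumour bladders 2 and 3. Metastases averaged 4.85 ± 0.20 (SD, n = 4), against 5.46 ± 0.33 (SD, n = 7) for tumour bladders, a difference of -0.61 (95% interval -0.94 to -0.28). Metastases 1, 2 and 4 were below 5.10, so how much of their signal is background is not known. The limma p of Sfn was 0.00105 unadjusted and 0.841 adjusted over all genes, and the exact permutation p was 0.0182, where 330 splits allow 0.00606. The difference was -0.69 over the 12 arrays and -0.53 over the 8.

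Trp63 was at 4.80, 4.97, 5.34 and 5.42 in metastases 1 to 4, against 5.84, 5.12, 5.66, 5.59, 5.57, 5.31 and 6.50 in tumour bladders 1 to 7. Metastases 1 and 2 lay below every tumour bladder, and metastases 3 and 4 above tumour bladders 2 and 6. For Trp63, metastases 1 and 2 were below 5.10, so how much of their signal is background is not known. Metastases averaged 5.13 ± 0.30 (SD, n = 4), against 5.65 ± 0.44 (SD, n = 7) for tumour bladders, a difference of -0.52 (95% interval -1.01 to -0.03). The exact permutation p was 0.0485 and limma's p 0.0377 (adjusted 0.854). It was -0.80 over the 12 arrays and -0.22 over the 8. Perp, the tetraspan protein of desmosomes that Trp63 induces, was at 5.17, 5.47, 5.30 and 6.21 in metastases, with metastasis 4 the highest, against 5.12 to 7.06 with a median of 5.44 in tumour bladders. Its difference lay within its standard error and turned from -0.50 over the 12 arrays to 0.23 over the 8.

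Dsp, the plakin that links the plaque to keratin, was at 4.49, 4.82, 5.53 and 5.62 in metastases 1 to 4. Tumour bladders 1 to 7 were at 6.65, 5.08, 5.42, 5.51, 5.51, 5.19 and 6.60. Metastases 1 and 2 were again below every tumour bladder, and tumour bladders 1 and 7 stood above all the other arrays of the comparison. Metastases 1 and 2 and tumour bladder 2 were below 5.10, so background may be part of their Dsp signal. The difference was -0.59 (95% interval -1.35 to 0.16, exact permutation p = 0.158, limma's adjusted p = 0.864), with -1.23 over the 12 arrays and 0.095 over the 8. Without metastasis 1 it was -0.385. Of the plakophilins, Pkp3 averaged 4.93 ± 0.08 (SD, n = 4) in metastases, against 5.10 ± 0.12 (SD, n = 7) for tumour bladders. Its limma p was 0.0509 (adjusted 0.861) and its exact permutation p 0.0182. The Pkp3 difference was -0.24 over the 12 arrays and -0.08 over the 8. Pkp1 was at 4.67, 4.67, 5.10 and 4.70 in metastases, 2 of 4 of them below every tumour bladder (4.68 to 5.27), a difference of -0.13 (exact permutation p = 0.321, limma's adjusted p = 0.891). Without tumour bladder 1 the Pkp1 difference was -0.073, and without metastasis 3 it was -0.237. It was -0.28 over the 12 arrays and turned to 0.02 over the 8. The means of Pkp1 and Pkp3 over the 20 arrays, 4.84 and 5.03, were also below 5.10.

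Among the cadherins, Dsc2 was at 4.85, 5.15, 5.35 and 5.29 in metastases 1 to 4. In tumour bladders 1 to 7 it was at 5.49, 5.56, 5.28, 5.55, 5.48, 5.33 and 5.53, so metastases 3 and 4 overlapped with tumour bladders 3 and 6. The difference was -0.30 (95% interval -0.54 to -0.06, exact permutation p = 0.0303, limma's adjusted p = 0.841), with -0.47 over the 12 arrays and -0.12 over the 8, and -0.194 without metastasis 1. Metastasis 1 was below 5.10, so background may be part of its Dsc2 signal. Dsg3 averaged 5.29 ± 0.20 (SD, n = 4) in metastases, against 5.57 ± 0.37 (SD, n = 7) for tumour bladders (difference -0.28, exact permutation p = 0.145, limma's adjusted p = 0.873). Without tumour bladder 1 it was -0.155, and it was -0.50 over the 12 arrays and -0.025 over the 8. Dsg2 was at 5.36, 6.71, 5.99 and 6.07 in metastases, with metastasis 2 above all 7 tumour bladders (5.45 to 6.54). The mean of 3 liver markers (Alb, Apoa1 and Ttr) was 6.82 on metastasis 2, against 4.83 to 5.41 in tumour bladders. Any part of liver tissue in the Dsg2 level was not tested. Dsg2 and Dsc3 had differences within their standard errors, and the Dsc3 difference turned from -0.02 to 0.04 with arrays centred on their medians or quantile normalised again, which moved the median of all genes to 0.032 and 0.015.

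The same metastases were set against normal bladders, a comparison that shares the metastasis arrays with the one above. Trp63 was at 6.00, 6.29, 5.78, 5.67 and 5.38 in normal bladders 1, 2, 4, 5 and 6, and metastasis 4 (5.42) alone overlapped with them. The difference was -0.69 (95% interval -1.21 to -0.17) with a limma p of 0.0124 (adjusted 0.720). It was -1.26 over the 12 arrays, where normal bladders 1 and 2 are the only normal ones, and -0.23 over the 8. Sfn was at 5.20, 5.44, 5.45, 5.46 and 5.09 in normal bladders, overlapping with metastasis 3 only, with a difference of -0.48 (95% interval -0.83 to -0.13, exact permutation p = 0.0317, limma's adjusted p = 0.720). The Sfn difference was -0.54 over the 12 arrays and -0.42 over the 8. By limma 0 of 10 genes passed against 0% of all genes, and 2 had an unadjusted p under 0.05, against 6.91% of all genes. Both were lower, as 3.81% of all genes were at that level. The exact permutation p of Trp63 was 0.0317 too, where 126 splits allow 0.0159, and no gene of the 10 had groups that did not overlap (2.85% of all genes).

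Perp averaged 5.54 ± 0.46 (SD, n = 4) in metastases and 6.01 ± 0.28 (SD, n = 5) in normal bladders, a difference of -0.47 (exact permutation p = 0.0952, limma's adjusted p = 0.802). The Perp difference was -0.95 over the 12 arrays and -0.08 over the 8. Dsp averaged 5.12 ± 0.55 against 5.60 ± 0.21, a difference of -0.49 (exact permutation p = 0.143, limma's adjusted p = 0.823) that was -1.14 over the 12 arrays and 0.10 over the 8. Without metastasis 1 the Dsp difference was -0.276. Dsg3 differed by -0.21 (exact permutation p = 0.238, limma's adjusted p = 0.857), and by -0.082 without normal bladder 6. The other 5 genes had differences within their standard errors, from -0.08 to 0.02. In all, 9 of 10 were lower, where 52.7% of all genes were, and 7 of 10 with arrays centred on their medians. Over the 12 arrays 9 of 10 were lower, and over the 8 arrays 7 of 10 were. Of all genes at an unadjusted p under 0.05, 933 of 2082 were higher in metastases as deposited and 1394 of 2063 with centring.

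**Figure D2:**
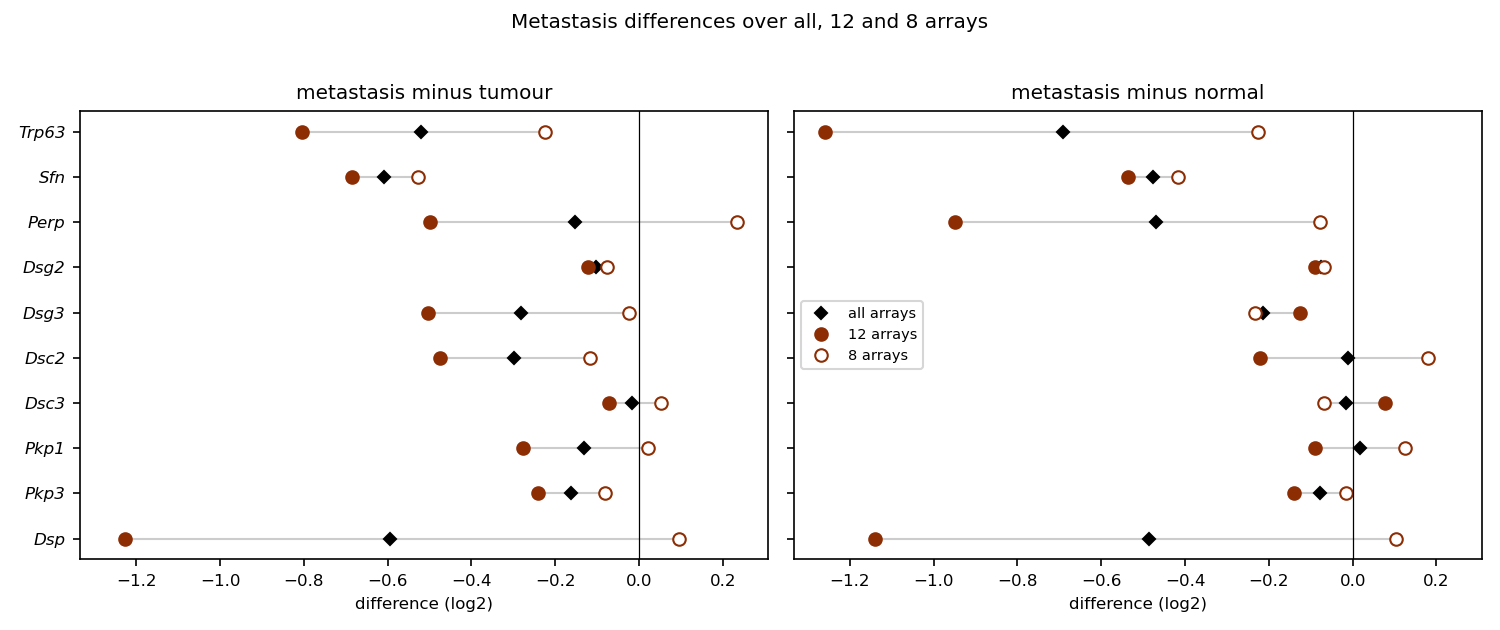
Differences on the log2 scale of metastases from tumour bladders (left) and from normal bladders (right), over all arrays (diamonds), the 12 arrays (filled) and the 8 arrays that stand apart (open). For Sfn the 12 and 8 arrays give -0.69 and -0.53 (left), while for Dsp they give -1.23 and 0.095.

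Cell type markers also differed between the groups. In metastases against tumour bladders, 5 of 5 markers of any epithelium (Epcam, Cdh1, Krt8, Krt18 and Krt19) were lower, and their mean ran from 5.04 to 6.38 in metastases and from 5.67 to 8.41 in tumour bladders. The luminal urothelial mean ran from 5.62 to 7.44 in metastases, against 5.28 to 11.39 in tumour bladders, with 4 of 5 markers lower. Of 5 basal epithelial markers (Krt5, Krt14, Krt17, Itgb4 and Cdh3), 4 were lower and 1 higher, with a median difference of -0.13. Macrophage markers (Cd68, Csf1r, Adgre1, C1qa and C1qb) were higher in 5 of 5, at a mean of 5.96 to 8.26 in metastases and 5.49 to 6.77 in tumour bladders. Also lower were 5 of 5 smooth muscle, 4 of 4 skeletal muscle and 4 of 4 neutrophil markers, with median differences of -0.75, -0.40 and -0.26. Against normal bladders, 5 of 5 urothelial, 5 of 5 epithelial and 5 of 5 smooth muscle markers were lower in metastases, with medians of -1.20, -0.57 and -1.90, and 5 of 5 macrophage markers higher, with a median of 1.02. Of the basal markers, 3 were lower and 2 higher than in normal bladders, with a median of -0.15. None of the markers in these sets passed, and their part in the differences of the 10 genes was not tested. Over the 8 arrays the epithelial mean ran from 6.19 to 6.48, and its part in the differences of the 10 genes there was not tested either.

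The palbociclib metastasis lay near metastases 1 and 2 in several genes. Trp63 was at 4.90 on it, Sfn at 4.76, Dsp at 4.85 and Pkp1 at 4.63. For these genes all 3 arrays were below 5.10, so how much of their signal is background is not known. Dsg2 was at 5.62 on the palbociclib metastasis, between metastases 1 and 2 (5.36 and 6.71). Dsg3, at 5.40, was above both (5.085 and 5.25). On the palbociclib metastasis Perp was at 4.76 and Pkp1 at 4.63, each below 5.10 and below all the other 19 arrays. Its luminal urothelial mean of 4.75 and its epithelial mean of 5.04 were at the low end of the series too. Counting it as a metastasis left 0 of 10 genes past the test.

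The treated bladders address the effect of both drugs on tumour-bearing bladders. No gene of the 10 passed. Means were higher in treated bladders for 6 and lower for 4 (9 and 1 with arrays centred on their medians), with differences from -0.13 to 0.42 and a median of 0.05 (all genes, -0.02). By limma 0 of 10 passed at an adjusted p under 0.05 (0% of all genes), and 0 of 10 had an unadjusted p under 0.05, by limma (0.342% of all genes) or by the exact permutation test. All 10 had overlapping groups, where 0.129% of all genes did not overlap and 42.6% had higher means. Perp was at 5.91, 5.64 and 6.79 in treated bladders 1 to 3, against 5.97, 5.12, 5.81, 5.44, 5.30, 5.13 and 7.06 in tumour bladders 1 to 7, with treated bladder 3 and tumour bladder 7 highest. The Perp difference was 0.42 (95% interval -0.32 to 1.16, exact permutation p = 0.350, limma's adjusted p = 1). It was 0.084 without treated bladder 3, 0.656 without treated bladder 2, 0.649 without tumour bladder 7, and 0.29 over the 12 arrays. Dsc2 differed by -0.13 (95% interval -0.40 to 0.13, exact permutation p = 0.333, limma's adjusted p = 1). It was -0.071, -0.025 and -0.305 without treated bladders 1, 2 and 3 in turn, and -0.15 over the 12 arrays. Over the 12 arrays 5 of the 10 genes were lower, Dsp turning to -0.08.

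Trp63 was at 5.94, 5.37 and 6.23 in treated bladders, within the tumour range of 5.12 to 6.50, and its interval of -0.34 to 0.73 spans both signs. Treated bladder 3 was the highest of the 3 for all 10 genes. Dsp showed this most, at 5.27, 5.12 and 7.01 in treated bladders 1 to 3. With treated bladder 3 the Dsp difference from tumour bladders was 0.09, and leaving out 1 array at a time moved it from -0.52 to 0.43. Treated bladder 3 also had the highest epithelial mean of its group, at 7.96 against 6.34 for the lowest. All 5 luminal urothelial markers had higher means in treated than in tumour bladders, with a median difference of 1.27, and their part in these values was not tested.

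Against normal bladders, all 10 genes had higher means in treated bladders, by 0.01 to 0.20, where 46.7% of all genes were higher. Over the 12 arrays, which hold 2 of the 5 normal bladders, 2 genes were lower in treated bladders, with differences of -0.30 for Trp63 and -0.16 for Perp. Only the Dsc2 difference of 0.15 exceeded its standard error (95% interval -0.13 to 0.43, exact permutation p = 0.464, limma's adjusted p = 1). It was -0.019 without treated bladder 3, 0.26 without treated bladder 2, and 0.10 over the 12 arrays. Again 0 of 10 passed by limma (0% of all genes) and 0 had an unadjusted p under 0.05 (0.358% of all genes). Pkp3 was at 5.06, 5.05 and 5.16 in treated bladders and at 4.96 to 5.04 in the 5 normal bladders, with a median of 5.02. It was the 1 gene of the 10 whose groups did not overlap, as in 0.65% of all genes, with an exact permutation p of 0.0357, the smallest that 56 splits allow. The difference in mean was 0.08, and it lay within its standard error in limma (adjusted p = 1).

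The last comparison, of tumour with normal bladders, concerns what follows Cre inoculation in the bladder. The clearest of the 10 was Dsc2, which is a desmocollin of simple and stratified epithelia alike. Dsc2 was at 5.49, 5.56, 5.28, 5.55, 5.48, 5.33 and 5.53 in tumour bladders 1 to 7, against 5.14, 5.30, 5.22, 5.07 and 5.14 in normal bladders 1, 2, 4, 5 and 6. Tumour bladder 3 alone overlapped, with normal bladder 2. Tumour bladders averaged 5.46 ± 0.11 (SD, n = 7), against 5.17 ± 0.09 (SD, n = 5) for normal bladders, a difference of 0.29 (95% interval 0.06 to 0.51). The limma p was 0.0153 (adjusted 0.998) and the exact permutation p 0.00505, where 792 splits allow 0.00253. The Dsc2 difference was 0.25 over the 12 arrays and 0.30 over the 8.

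By limma 0 of 10 genes passed against 0% of all genes, and Dsc2 was the 1 with an unadjusted p under 0.05, against 4.25% of all genes, of which those higher were 2.39%. No gene of the 10 had groups that did not overlap (0.166% of all genes). Means were higher in tumour bladders for 7 of 10 (8 of 10 with arrays centred on their medians), where 53.1% of all genes were higher. Pkp1 averaged 4.92 ± 0.19 (SD, n = 7) in tumour bladders, against 4.77 ± 0.08 (SD, n = 5) for normal bladders (exact permutation p = 0.121, limma's adjusted p = 0.998). Pkp3 averaged 5.10 ± 0.12 against 5.01 ± 0.03 (exact permutation p = 0.0884, limma's adjusted p = 0.998). Without tumour bladder 1 the differences were 0.09 for Pkp1 and 0.045 for Pkp3. Perp differed by -0.32 (exact permutation p = 0.356, limma's adjusted p = 0.998), with 6 of 7 tumour bladders below the normal mean and tumour bladder 7, at 7.06, above every normal bladder. Without tumour bladder 7 it was -0.544. Trp63, Sfn, Dsg2, Dsg3, Dsc3 and Dsp had differences within their standard errors, from -0.17 to 0.13. For Trp63, tumour bladder 7 (6.50) was above every normal bladder and tumour bladders 2 and 6 (5.12 and 5.31) were below every one. All 5 luminal urothelial markers had lower means in tumour bladders, with a median difference of -0.66, and their part in these values was not tested.

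Tumour bladders differed among themselves, with an SD of 0.44 for Trp63 and 0.65 for Dsp. Tumour bladder 7 was the highest of the 7 for Trp63, Sfn, Perp and Dsg2, and its luminal urothelial mean, 11.39, was the highest of all 20 arrays. Tumour bladder 1 was the highest of the 7 for Dsg3, Dsc3, Pkp1, Pkp3 and Dsp (6.32, 5.56, 5.27, 5.34 and 6.65). Its luminal urothelial mean was 7.21, its epithelial mean 6.59 and its basal epithelial mean 6.00. Of the 7, only tumour bladder 7 had higher epithelial and basal means (8.41 and 6.24). The part of these cells in the levels was not tested. The high arrays thus differed between genes.

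The 10 genes varied together over the 12 arrays and not over the 8. The 45 pairs had a median Pearson r of 0.65 over the 12 arrays (range 0.14 to 0.93) and of 0.07 over the 8 (range -0.89 to 0.88). These correlations describe arrays that share groups and tissue makeup. Trp63 and Perp had r = 0.88 over all 20 arrays (Spearman's rho 0.89), and 0.84 without the 2 arrays farthest from the median in Trp63. They had 0.93 over the 12 and 0.31 over the 8. Trp63 and Sfn had 0.78 over the 20, and 0.89 over the 12 and 0.56 over the 8. Trp63 and Dsp had 0.80 over the 20, but 0.84 over the 12 and -0.89 over the 8, where Dsp spanned only 5.33 to 5.64. Pkp1 and Pkp3 had 0.82 over the 20 arrays, with 0.92 over the 12 and 0.54 over the 8. Dsg3 and Dsc3, which lie in the cadherin cluster on chromosome 18 with Dsg2 and Dsc2, had 0.77 over the 20, 0.73 over the 12 and 0.88 over the 8. By contrast, Trp63 had r = 0.20 with Dsg3 and 0.09 with Dsc3 over the 20 arrays.

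**Figure D3:**
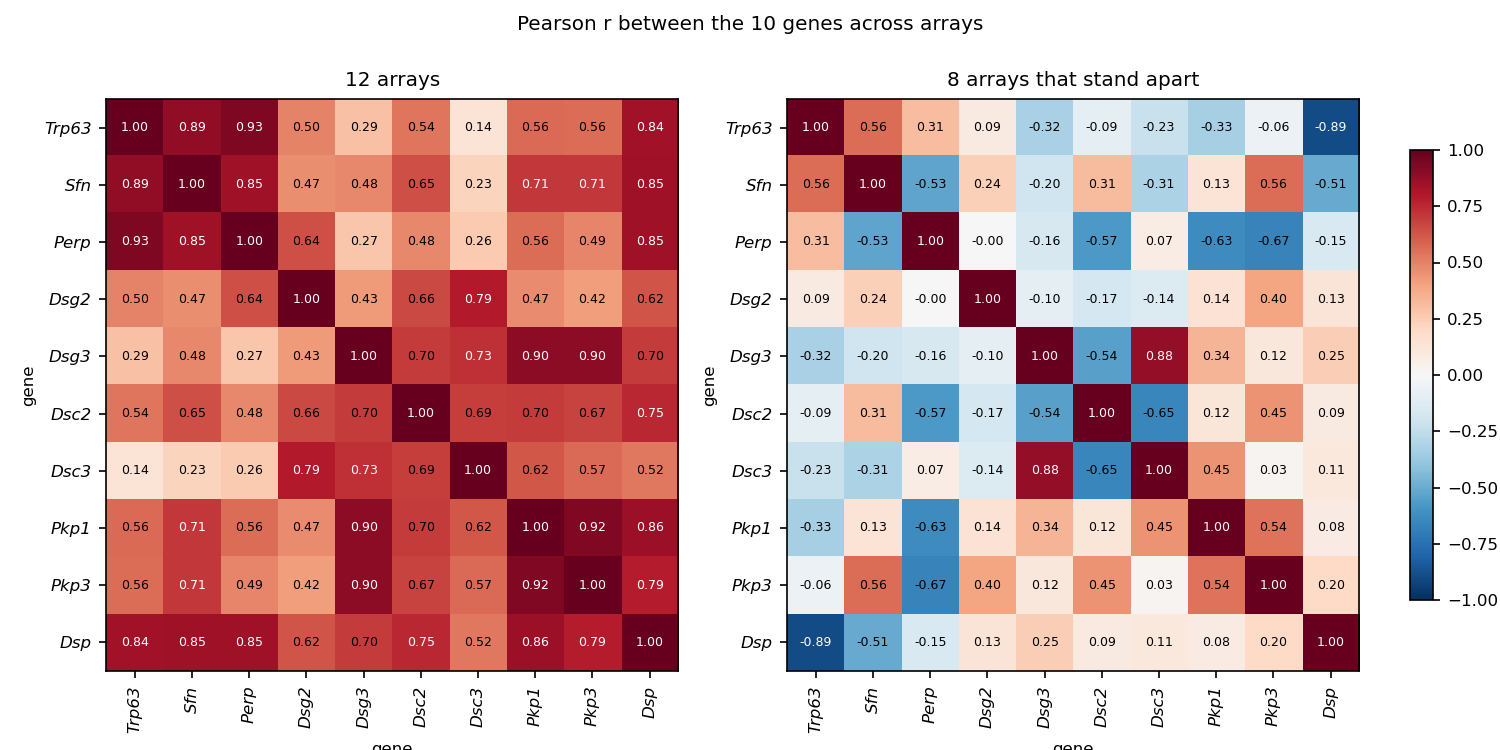
Pearson r between each pair of the 10 genes over the 12 arrays (left) and over the 8 arrays that stand apart (right), from blue (-1) to red (1), with the value in each cell. All 45 pairs are above 0 over the 12 arrays, and 24 of 45 over the 8.

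The genes most like Trp63 over the 20 arrays, out of 16678 protein-coding genes, were Ivl (involucrin), Ptpn3 and Krt5, the basal keratin, each at r = 0.95. Aqp3, a water channel, followed at 0.95 and Slc14a1, a urea transporter, at 0.94. Over the 8 arrays these fell to between 0.31 (Aqp3) and 0.71 (Ivl). Krt5 averaged 5.88 ± 0.76 (SD, n = 4) in metastases and 7.78 ± 1.07 (SD, n = 3) in treated bladders. It averaged 7.09 ± 1.34 (SD, n = 7) in tumour bladders, against 7.41 ± 0.79 (SD, n = 5) for normal ones. Krt5 was at 4.87 in the palbociclib metastasis. The genes most like Dsp were Grhl2, an epithelial transcription factor, and Esrp1, an epithelial splicing regulator, both at r = 0.95, then Rab15, Dapl1 and Tmem54 at 0.94, 0.94 and 0.93. Over the 8 arrays Esrp1 was at -0.57 and Dapl1 at 0.86. Pkp1, whose mean of 4.84 was below 5.10, had weaker likeness to any gene over the 20 arrays. Usp51 was at 0.84, Leng9 at 0.81, and Gsdmc4, Oosp1 and Tjp3 at 0.79, 0.79 and 0.78. Over the 8 arrays these were at 0.77, 0.77, 0.42, 0.815 and 0.81 in the same order.

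**Figure D4:**
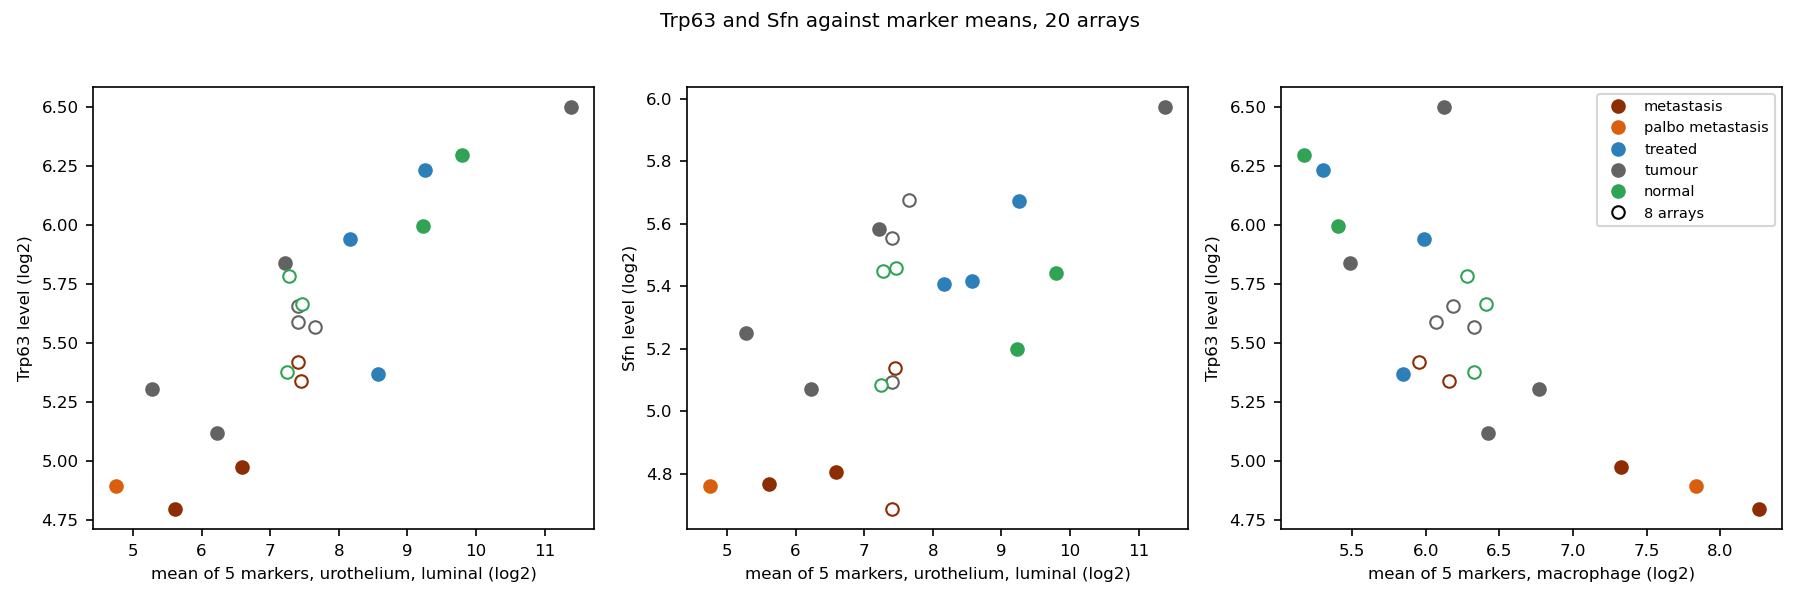
Levels of Trp63 (left and right) and Sfn (middle) on the log2 scale against the mean level of 5 luminal urothelial markers (left, middle) or 5 macrophage markers (right), 1 point an array, open for the 8 arrays. Trp63 follows the urothelial mean over the 20 arrays (r = 0.88) and runs against the macrophage mean (r = -0.80), but not over the 8 arrays (r = 0.005 and 0.34).

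Trp63 went with the luminal urothelial mean at r = 0.88 over the 20 arrays (rho 0.79, and 0.81 without the 2 arrays farthest in that mean), 0.90 over the 12 and 0.005 over the 8. With the mean of any epithelium its r was 0.89 over the 20 arrays and -0.16 over the 8. With the basal epithelial mean it was 0.80 over the 20 arrays and -0.16 over the 8. Trp63 went against the macrophage mean at r = -0.80 over the 20 arrays and with the smooth muscle mean at 0.86. Over the 8 arrays these were 0.34, with the sign turned, and 0.28. Sfn had r = 0.68 with the urothelial mean over the 20, 0.80 over the 12 and 0.39 over the 8. Pkp1 had 0.29 with it over the 20 arrays, 0.34 over the 12 and 0.63 over the 8. Dsp went most with the basal epithelial mean (Krt5, Krt14, Krt17, Itgb4 and Cdh3), at r = 0.89 over the 20 and 0.15 over the 8.

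The other genes of the junction and of the Trp63 pathway were read from lists, in which 0 genes passed in any comparison by limma. Of 10 other desmosome genes (Jup, Pkp2, Pkp4, Dsg1a, Dsg1b, Dsg1c, Dsg4, Dsc1, Ppl and Evpl), 9 were lower in metastases than in tumour bladders, with a median of -0.09 against -0.03 for all genes. Dsc1, a desmocollin of cornifying epithelia, was at 4.85 ± 0.18 (SD, n = 4) against 5.12 ± 0.20 (SD, n = 7, limma's adjusted p = 0.861). Of 17 measured targets of Trp63 known from keratinocytes, 15 were lower in metastases than in tumour bladders, with a median of -0.21. Jag2, a Notch ligand, was at 5.78 ± 0.06 in metastases and 6.02 ± 0.18 in tumour bladders (limma's adjusted p = 0.841). Bnc1, a basonuclin, was at 5.30 ± 0.62 in metastases and 5.08 ± 0.15 in tumour bladders (limma's adjusted p = 0.893). Cdh3, or P-cadherin, was at 5.87 ± 0.47 against 5.71 ± 0.42 (limma's adjusted p = 0.931). Of 12 measured keratins 11 were lower, Krt15, a basal keratin, at 5.37 ± 0.30 against 5.87 ± 0.40 (limma's adjusted p = 0.847).

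The other lists did not all run that way. Of 7 measured adherens junction genes, 6 were higher in metastases than in tumour bladders, with Cdh2, or N-cadherin, at 6.47 ± 0.62 (SD, n = 4) against 5.79 ± 0.31 (SD, n = 7, limma's adjusted p = 0.841). Afdn, or afadin, was at 6.24 ± 0.25 against 6.01 ± 0.07 (limma's adjusted p = 0.856). Cdh1, or E-cadherin, was the 1 lower gene of that list, at 5.81 ± 0.79 against 6.60 ± 0.79 (limma's adjusted p = 0.861). The 6 other 14-3-3 genes had a median difference of 0.22 with 5 higher, where Sfn was at -0.61. Of 16 measured genes of the cornified envelope, 9 were higher and 7 lower. Of 9 measured hemidesmosome genes, 8 were lower, among them Itgb4, the integrin chain of hemidesmosomes, at 5.49 ± 0.18 against 5.76 ± 0.23 (limma's adjusted p = 0.861). Itgb4 is also on the list of Trp63 targets. Of 5 relatives of Trp63 and Perp, Trp73 and the PMP22 family, 4 were higher.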

How the data were processed

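The deposited table holds expression levels, taken as log2, that the authors made with RMA in Affymetrix Expression Console, per the submitters' processing notes. Values ran from 2.16 to 22.0, and array medians from 5.11 to 5.48. Values above 16, in 289 rows, are high for log2 of a scanner's range, and the log base is not given in the sources used here, so log2 is an assumption behind every difference; none of the 10 genes lies there. Arrays have no read depth, and their number limits the precision. Rows with exactly 1 symbol (30604 of 65956) were kept, 827 symbols were updated, and the row with the highest mean was taken per gene. A linear model of 5 groups was fitted to 30142 genes with limma 3.58.1 (R 4.3.3) and tested 2-sided, with p-values adjusted by Benjamini-Hochberg and a threshold of 0.05. Exact permutation tests were made with SciPy 1.17.1, 50 in all and unadjusted. The code of the fit was also run on simulated data with independent noise and changes larger than those of the 10 genes. That run does not bear on the differences described here.

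The 8 arrays have an SD above 0.30 in dim rows (mean 4.5 to 5.0) and no correlation of deviations with another array of 0.25 or more in the 5317 rows whose mean reaches 7. The genes, lists and this rule were chosen with earlier results of these data known. Named are the 10 genes, the 5 genes most like Trp63, Dsp and Pkp1, marker genes, and list genes drawn from the 2 higher and 2 lower ones of lowest p per list; which of these are printed was chosen with their values seen.

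Alternatives were array weights, a fit limited to both groups of a comparison, dim genes left out, quantile normalisation again, centring, the mean of a gene's rows, a replicate block, the palbociclib metastasis as a metastasis, the 8 arrays left out or as a term, and each array left out. RefSeq symbols and 2 promoters were taken from the GRCm38.p6 tables.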

Additional observations from a re-analysis of the deposited data

Results flagged for a closer look

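Dsg3 in tumour bladder 1 was at 6.324, where the other 6 tumour bladders lay between 5.17 and 5.67, a gap large for the range of its group. Pkp1 in metastasis 3 was at 5.102, where the other 3 metastases lay between 4.67 and 4.70. These were 2 of 30 groups of values checked for 1 far array, and chance flags about 1 in 20.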

How the results depend on the processing

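Of 50 differences (10 genes in 5 comparisons), 19 exceeded their standard error, and of 362 values of these under the alternatives 361 kept their sign. The exception was Dsc2 in treated against normal bladders, which left-out arrays moved from -0.019 (without treated bladder 3) to 0.26. Of 558 values of the other 31 differences, 100 had the opposite sign. By limma no gene of the 10 passed at an adjusted p under 0.05 under any alternative run, with a lowest adjusted p of 0.169 for the 19. The count of genes passing by limma was 1 for metastases against normal bladders with only these groups fitted. Without the 8 arrays it was 3 for metastases against tumour bladders and 3 against normal bladders. By the exact permutation test at an unadjusted p under 0.05, metastases gave 4 of the 10 against tumour and 2 against normal bladders, while tumour and treated bladders gave 1 each against normal ones. With the replicate number as a block, Sfn differed by -0.52 and Trp63 by -0.49 between metastases and tumour bladders, and 0 of 10 genes passed. Deviations from the group means of samples with the same number had r from -0.51 to 0.33 over 20 pairs, 1 above 0.1. Such values cannot show whether samples of the same number share a mouse. With dim genes left out (level below 5.10), 8 of the 10 stayed in the test, without Pkp1 and Pkp3. Left-out arrays moved Sfn from -0.71 to -0.52, Trp63 from -0.62 to -0.38 and Dsp from -0.76 to -0.39 in metastases against tumour bladders, and Dsc2 from 0.26 to 0.32 in tumour against normal bladders.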
